A study of Mus musculus with 18 samples.

Results

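The genes described here are 37 genes of fatty acid oxidation and ketone body metabolism in mouse liver, chosen by name for the step they serve, at a time when earlier results of these data were known. Probe sets were named for 35 of the 37 (Acsl1 and Ucp2 were not analysed here), and all 35 passed the filter on dim signal, against 12578 of the 18193 named genes on the array. Where a gene had several probe sets, the brightest over the 18 arrays was used. Livers came from male mice aged 12 weeks that carried a floxed gene for NADPH-cytochrome P450 reductase (Por) on both alleles. Control mice were Alb-Cre-/-/POR-lox+/+. Knockout mice were Alb-Cre+/-/POR-lox+/+, in which Cre recombinase is driven by the albumin promoter and so acts in hepatocytes. Por itself was not analysed here. From weaning at week 4, mice of both genotypes ate for 8 weeks a synthetic diet whose fat was lard, canola oil or a fish and fungal oil mixture, and they were fasted for 4 h before the livers were taken. The sample labels give the fat as 7% of the diet, and the series text gives it as 6%, the fish/fungal mixture being 3.27% ARASCO and 2.73% menhaden oil. All 3 diets also held 0.025% cholesterol and 0.008% sodium cholate. Each of the 6 genotype and diet groups had 3 arrays, and each array read RNA pooled from 3 mice, so that 9 mice stand behind a group and p-values measure the spread between pools.

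Fatty acids enter the mitochondrion of a liver cell as carnitine esters, made by Cpt1a at the outer membrane, carried across by Slc25a20 and turned back to acyl-CoA by Cpt2. Inside, the beta-oxidation cycle shortens them by acyl-CoA dehydrogenases, a hydratase, a hydroxyacyl-CoA dehydrogenase and a thiolase, and electrons pass through Etfa, Etfb and Etfdh to the respiratory chain. Peroxisomes shorten very long and highly unsaturated chains by a parallel set of enzymes. Acetyl-CoA made in excess, above all in fasting, becomes acetoacetate, which Bdh1 reduces to beta-hydroxybutyrate. Many of these genes are known targets of the nuclear receptor PPAR-alpha, which binds fatty acids, works with RXR, and binds repeats of the motif AGGTCA.

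Promoter sequence is shown for Bdh1, the 1 member whose level passed the test, and for members with a match to the PPAR-alpha motif. The sequences come from RefSeq (build GRCm38.p6), read 5′ to 3′ on the gene's strand, in windows from 250 bases before to 50 bases after a start site. Windows were held for 31 of the 37 genes (35 windows), and not for Vnn1, Decr1, Hsd17b4, Abcd2, Crat and Acaa2. The first stretches are the 250 bases before the 2 annotated starts of Bdh1, at chr16:31422047-31422296 and chr16:31428503-31428752 on the plus strand, and neither Bdh1 window held either of the motifs searched.
Bdh1 start 1: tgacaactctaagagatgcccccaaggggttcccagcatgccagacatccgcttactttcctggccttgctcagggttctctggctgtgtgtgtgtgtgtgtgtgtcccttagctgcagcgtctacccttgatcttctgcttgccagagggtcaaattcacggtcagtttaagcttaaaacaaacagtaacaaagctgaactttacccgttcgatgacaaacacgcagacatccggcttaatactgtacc
Bdh1 start 2: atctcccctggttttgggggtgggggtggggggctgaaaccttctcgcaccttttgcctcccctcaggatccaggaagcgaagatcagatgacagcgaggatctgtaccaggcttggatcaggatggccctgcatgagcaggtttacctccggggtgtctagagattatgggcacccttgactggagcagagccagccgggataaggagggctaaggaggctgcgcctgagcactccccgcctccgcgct
The next stretch lies before the start of Acot4, which codes for a peroxisomal acyl-CoA thioesterase, at chr12:84038129-84038378 on the plus strand, with the match to the repeat in capitals.
Acot4: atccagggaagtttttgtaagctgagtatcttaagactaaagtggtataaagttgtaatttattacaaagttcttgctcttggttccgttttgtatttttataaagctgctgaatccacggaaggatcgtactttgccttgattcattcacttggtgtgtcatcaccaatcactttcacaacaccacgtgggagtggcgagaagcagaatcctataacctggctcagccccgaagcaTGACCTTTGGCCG
The same repeat, allowing up to 2 mismatches, was matched in Slc25a20, at chr9:108662134-108662162 on the plus strand, and in Etfa, at chr9:55512300-55512328 on the minus strand, and capitals mark it again.
Slc25a20: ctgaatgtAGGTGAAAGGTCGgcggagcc
Etfa: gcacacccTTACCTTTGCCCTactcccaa
The repeat searched was AGGTCANAGGTCA on both strands, and it matched with up to 2 mismatches in 3 of the 35 members' windows (8.57%), against 1268 of all 32851 windows (3.86%). No member's window held it exactly, and 13 of all windows did (0.0396%). The single motif AGGTCA, on either strand, was in 7 of the 35 windows (20.0%), those of Acadm, Acadvl, Acot3 (2 windows), Acot4, Cpt1a and Slc27a2, against 16.3% of all windows. The Acot4 repeat contains the single motif, so these matches overlap. A match describes letters only and shows no binding.

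Values are the authors' RMA values, read here as log2 intensities, so that a difference of 1 is a doubling, and levels of different probe sets cannot be compared. Array medians lay between 5.229 and 5.286, arrays of a group correlated at 0.993 to 0.997, and no arrays were identical. Of 9 hepatocyte markers tested, 0 were called between genotypes, and their summed level was 16.93 to 17.05 (log2 of the summed linear values) over all arrays. It ran from 17.04 to 17.05 in control lard and from 16.97 to 17.01 in knockout lard. On canola it ran from 16.99 to 17.03 in control and from 16.97 to 17.01 in knockout livers. On fish/fungal oil it ran from 16.99 to 17.04 in control and from 16.93 to 16.97 in knockout livers. That sum is carried by genes such as Alb near the top of the array's range, so it says little about small differences in hepatocyte RNA. Of 10 Kupffer cell and macrophage markers, 6 (Cd68, Lyz2, Ctss, C1qa, C1qb and Itgax) were higher in knockout livers over the 3 diets, against 480 of all 12578 genes. Their summed level ran from 12.72 to 13.12 in control lard and from 13.43 to 13.53 in knockout lard, from 12.57 to 13.02 and from 12.9 to 13.29 on canola, and from 13.09 to 13.25 and from 12.96 to 13.65 on fish/fungal oil. The sum of 6 lymphocyte markers ran from 8.81 to 9.185 in control lard and from 8.589 to 8.746 in knockout lard. On canola the ranges were 8.702 to 8.991 and 8.529 to 8.659, and on fish/fungal oil 8.723 to 8.788 and 8.643 to 8.75. In bulk RNA, fewer cells of a type and less RNA per cell cannot be told apart. The sum of 8 stellate and fibroblast markers ran from 12.01 to 12.05 in control lard and from 12.1 to 12.6 in knockout lard. For 7 sinusoidal endothelium markers it ran from 11.7 to 11.8 and from 11.88 to 11.96. On canola and on fish/fungal oil the genotypes overlapped in both sums. Adipoq of adipocytes and Ucp1, Cidea, Acta1 and Myh4 of brown fat and muscle were too dim to test. Fabp4, 1 of 2 adipocyte markers tested, was higher in knockout livers. The part of these markers in the differences between genotypes was not tested.

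Some pools stood apart for the genes described here, though not for the array as a whole. In the control lard group, pool 1 was the highest of the 3 for 31 of 35 genes, against 36.9% of all genes tested, and in the knockout lard group pool 3 was the highest for 34 of 35, against 31% of all genes. The median gene of the 35 lay 0.20 and 0.26 above its group's mean in these pools, where the median of all genes lay at 0.0047 and -0.011. Pool 2 of the knockout canola group was the highest for 26 of 35 (29.7% of all genes), and no fish/fungal pool was the highest for more than 18. Other pools were low for these genes. Control canola pool 3 was the lowest for 25 of 35 (33.4% of all genes), knockout lard pool 1 for 24 (23.7%) and knockout canola pool 3 for 20 (35.8%). Spread within a group was therefore shared among these genes, and the lard group means rest in part on 1 pool each. The counts of genes called, and values that moved much, are given below with and without control lard pool 1 and knockout lard pool 3. These pools were singled out after their values were seen, because they were high for these genes, so the values without them are a description and no independent support. The low pools and the canola pools named above were kept in that comparison.

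**Figure D1:**
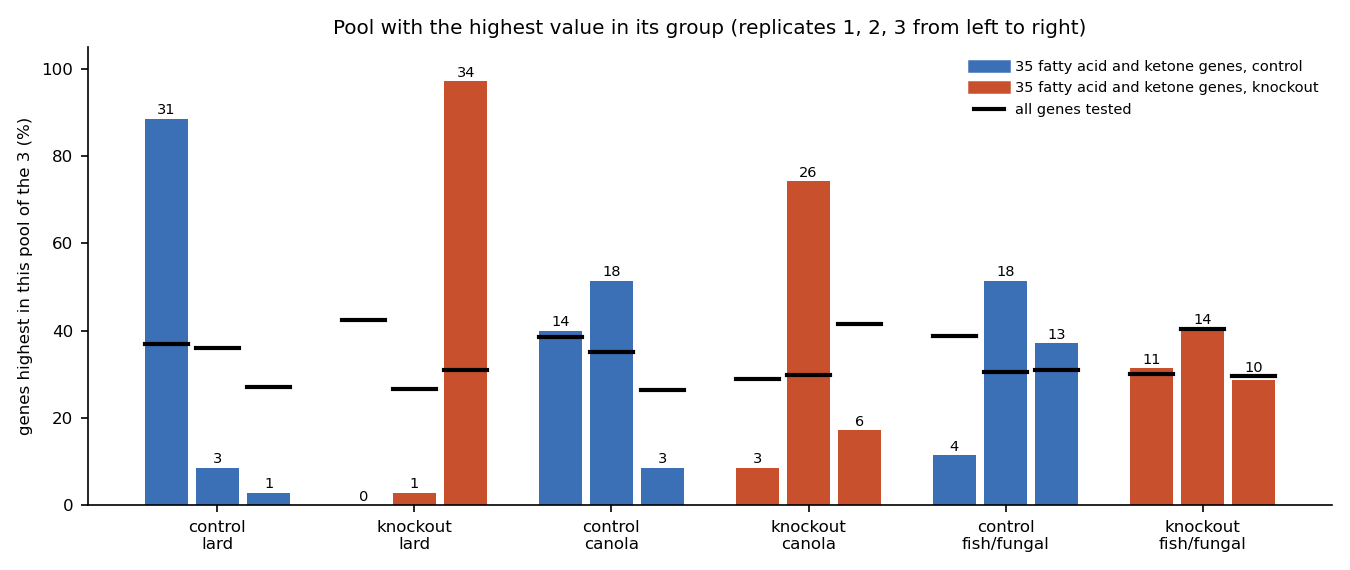
Share of the 35 genes that had their highest value of the group in each pool (bars, in percent, with the number of genes above each bar, replicates 1 to 3 from left to right) and the same share over all 12578 genes tested (black lines). Control lard replicate 1 held the highest value for 31 genes and knockout lard replicate 3 for 34, against 36.9% and 31% of all genes.

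Of the 35 genes, Bdh1 alone passed the test for diet. Bdh1 codes for the mitochondrial dehydrogenase that interconverts acetoacetate and beta-hydroxybutyrate, the last step of ketone body formation. It read 12.00, 11.62 and 11.78 in the control lard pools, 11.63, 11.74 and 12.03 in knockout lard, 12.08, 11.89 and 11.83 in control canola, and 11.77, 11.96 and 11.83 in knockout canola. On fish/fungal oil it read 11.53, 11.55 and 11.41 in control pools and 11.43, 11.61 and 11.33 in knockout pools. All 6 fish/fungal pools lay below all 6 lard pools and all 6 canola pools, in both genotypes. Over all genes tested, fish/fungal pools lay wholly below lard pools for 1.15% and wholly above for 0.326%, and wholly below canola pools for 0.7% and above for 0.334%. Canola pools lay wholly above lard pools for 0.0954% and wholly below for 0.0954%, and knockout pools wholly above control pools for 0.31% and below for 0.0318%. Among the 35 genes, Bdh1 was the only one without overlap in any of these comparisons, in both that concern fish/fungal oil.

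Averaged over genotypes, Bdh1 was lower on fish/fungal oil than on canola, with a log2 change of -0.42 (SE 0.08, limma adjusted p = 0.0152), which is 1.34-fold with a 95% interval from 0.665 to 0.842 of the canola level. It was lower than on lard with a log2 change of -0.32 (SE 0.08, limma adjusted p = 0.0428), with a 95% interval from 0.711 to 0.90 of the lard level. Between canola and lard the change was 0.10 (SE 0.08, limma adjusted p = 0.9). Bdh1 was thus 1 of 35 genes called lower against canola, where 0.692% of all genes were lower and 0.986% were called in either direction. Against lard it was 1 of 35 also, where 1.78% of all genes were lower and 2.32% were called in either direction. A count of 1 among 35 genes is too small to set the members' share apart from these backgrounds. The comparison with canola held under all 28 alternatives tried, whereas the comparison with lard lost its call under 19 of 28. The call ended when any of 12 single pools was left out, with a limma adjusted p from 0.0517 to 0.121, namely control lard 1 and 3, knockout lard 2 and 3, each knockout canola pool, each control fish/fungal pool, and knockout fish/fungal 1 and 3. Without both of those pools the change against lard was -0.22 (limma adjusted p = 0.179).

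Within each genotype the size of the Bdh1 change was alike but did not pass the test with 3 pools against 3. Against canola it was -0.44 in control (limma adjusted p = 0.173) and -0.40 in knockout livers (0.401), and against lard -0.30 (0.451) and -0.34 (0.298). The knockout's own effect on Bdh1, averaged over diets, was -0.04 (SE 0.07, limma adjusted p = 0.809), with an interval from 0.883 to 1.07 of the control level. A dimmer probe set for the same gene read 7.998 to 8.616 in fish/fungal pools, 8.645 to 9.23 in canola pools and 8.559 to 9.527 in lard pools. It gave changes of -0.68 against canola and -0.67 against lard (SE 0.15 for both), in the same direction, and its fish/fungal and lard pools overlapped. With the mean of both probe sets as the value, the changes were -0.55 and -0.50 (limma adjusted p = 0.0153 and 0.016).

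**Figure D2:**
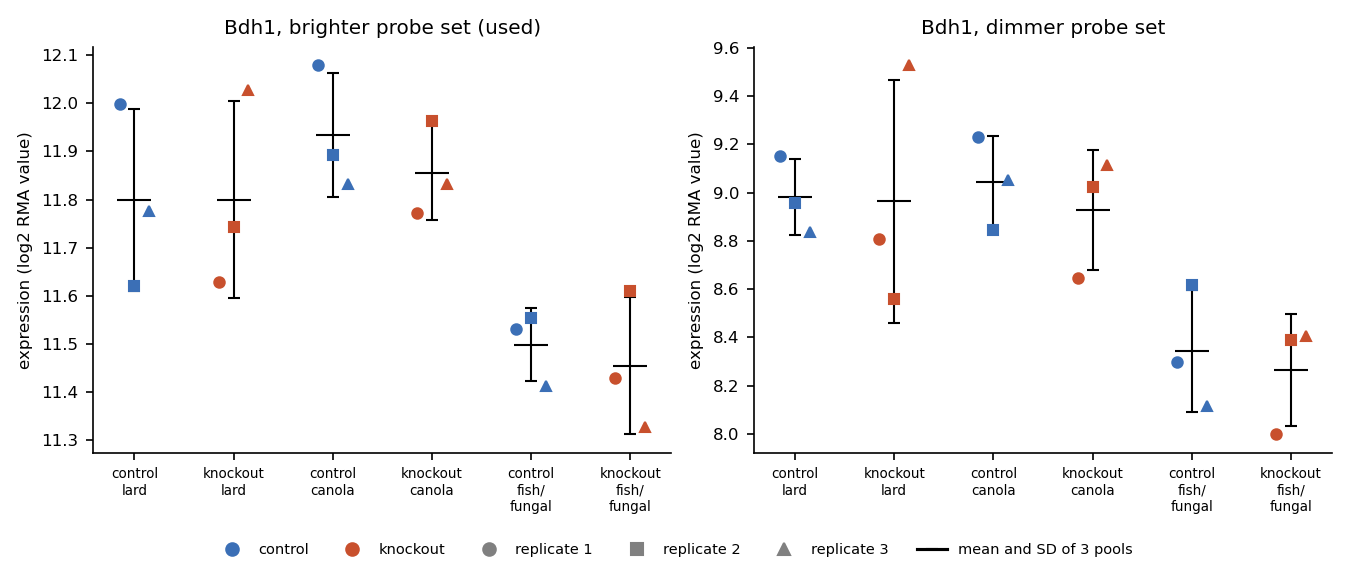
Bdh1 level (log2 RMA value) in each of the 18 pools by genotype and diet, for the brighter probe set used in the tests (left) and the dimmer one (right), with the mean and SD of 3 pools. On the left all fish/fungal pools, 11.33 to 11.61, lie below all lard pools, 11.62 to 12.03, and all canola pools, 11.77 to 12.08.

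Between knockout and control livers none of the 35 genes passed the threshold. Averaged over the 3 diets, 0 of 35 were called by limma at an adjusted p under 0.05, against 4.57% of all genes (575 genes, 480 of them higher; 400 of 563 higher after a repeated quantile normalization and 425 of 568 after centring). At an unadjusted p under 0.05 there were 5 of 35, against 18% of all genes. Within single diets the count was 0 of 35 on lard (background 0.986%), on canola (0.0636%) and on fish/fungal oil (0.294%). The median change of the 35 was 0.05, beside -0.0047 for all genes, and 28 were above 0. This count depended on scaling and was 21 after a repeated quantile normalization and 22 after centring, and 25 without the lard pools that stood apart.

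For the mitochondrial steps the probe sets used set narrow limits on a knockout effect averaged over diets. For the 4 genes of the carnitine shuttle, the 10 of beta-oxidation and the 3 of electron transfer, all 17 intervals of the averaged change lay between 0.836 and 1.24 of the control level. Within single diets the limits were wider, from 0.731 to 1.54 on lard, 0.736 to 1.34 on canola and 0.745 to 1.36 on fish/fungal oil. These 95% intervals are each gene's own and are not adjusted for the number of genes. Cpt1a, the entry step that malonyl-CoA inhibits, changed by -0.08 (SE 0.09), and Cpt2, the inner carnitine acyltransferase, by -0.07. Slc25a20, the carnitine and acylcarnitine carrier, gave 0.06, and Crat, which transfers short acyl groups to carnitine, 0.01, whereas a second Crat probe set of similar brightness gave 0.30 (SE 0.16) and so sets no such limit. Among the chain-length-specific dehydrogenases, the value was -0.03 for Acadvl (very long chains), 0.03 for Acadl (long), 0.08 for Acadm (medium) and 0.02 for Acads (short). Hadha and Hadhb, the subunits of the trifunctional protein, gave -0.03 and 0.06, Hadh, a hydroxyacyl-CoA dehydrogenase, 0.01, and the thiolase Acaa2 -0.01. For the enzymes that prepare unsaturated chains the change was 0.03 for the isomerase Eci1 and 0.13 (SE 0.07, limma adjusted p = 0.363) for the reductase Decr1. Etfa and Etfb, the electron transfer flavoprotein, gave 0.00 and 0.01, and Etfdh, the oxidoreductase that takes its electrons, 0.03. None of these values passed the test. Slc27a2, a very-long-chain acyl-CoA synthetase that also takes up fatty acids, changed by 0.01 (SE 0.06).

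Larger values were measured among peroxisomal genes, thioesterases and other inducible genes, without passing the test. Of 12 peroxisomal genes 11 had an averaged change above 0, with a median of 0.12 (10 or 11 under other scalings), whereas the 19 mitochondrial genes had a median of 0.02 (14 above 0, and 8 or 9 under other scalings). By diet, 10 of the 12 peroxisomal genes were above 0 on lard (median 0.14), 7 on canola (0.01) and 10 on fish/fungal oil (0.23). The 12 include the thioesterases Acot3, Acot4 and Acot8, and the 19 include Acot2 and Pdk4. Without those thioesterases, the 9 other peroxisomal genes had medians of 0.12 on lard, 0.02 on canola and 0.12 on fish/fungal oil. Ehhadh, the peroxisomal bifunctional hydratase and dehydrogenase, read 11.92, 11.68 and 11.74 in control lard and 11.91, 12.01 and 12.71 in knockout lard pools. It read 12.21, 12.32 and 11.74 in control canola and 12.55, 12.73 and 12.23 in knockout canola, then 11.89, 12.26 and 12.17 in control and 12.46, 12.45 and 12.19 in knockout fish/fungal pools. Ranges of the genotypes overlapped, with a median of 11.92 in control and 12.45 in knockout pools over all diets. The averaged change was 0.37 (SE 0.11, limma adjusted p = 0.0616), with 0.43 on lard, 0.42 on canola and 0.26 on fish/fungal oil, and it passed the threshold in some alternatives that left out 1 pool. Without knockout lard pool 3 the averaged change of Ehhadh was 0.29 (limma adjusted p = 0.0845) and its change on lard 0.18.

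Abcd2, a peroxisomal transporter for very long and polyunsaturated acyl-CoA, had the largest averaged value, 0.99 (SE 0.30, limma adjusted p = 0.0676). Its pools read 6.29, 5.43 and 5.12 in control lard and 6.48, 6.61 and 8.20 in knockout lard. On canola they read 6.03, 6.80 and 5.15 in control and 6.84, 6.93 and 5.66 in knockout livers, and on fish/fungal oil 4.95, 5.01 and 5.15 and then 6.86, 6.21 and 5.02. The genotypes overlapped on canola and on fish/fungal oil. On lard the lowest knockout pool (6.48) lay above the highest control pool (6.29). The share of all genes that separate so with 3 pools against 3 was not counted, so this says little. Abcd2 was above the array median in 12 of 18 arrays, so its low values lie near background. Its 3 dimmer probe sets gave 0.57, 0.41 and 0.04. Without knockout lard pool 3 the averaged change was 0.80 (limma adjusted p = 0.115), and without both lard pools that stood apart 0.92 (0.0775).

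The other peroxisomal genes lay closer to 0. Abcd3, a transporter of the same family, gave -0.04, and Acaa1b, a thiolase whose probes may also read its near-identical copy Acaa1a, gave 0.07. Hsd17b4, the second bifunctional enzyme, gave 0.12, the isomerase Eci2 0.05 and the reductase Decr2 0.12. Crot, which makes carnitine esters of shortened chains for export, gave 0.02, and Pex11a, which promotes peroxisome division, 0.23 (SE 0.20).

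**Figure D3:**
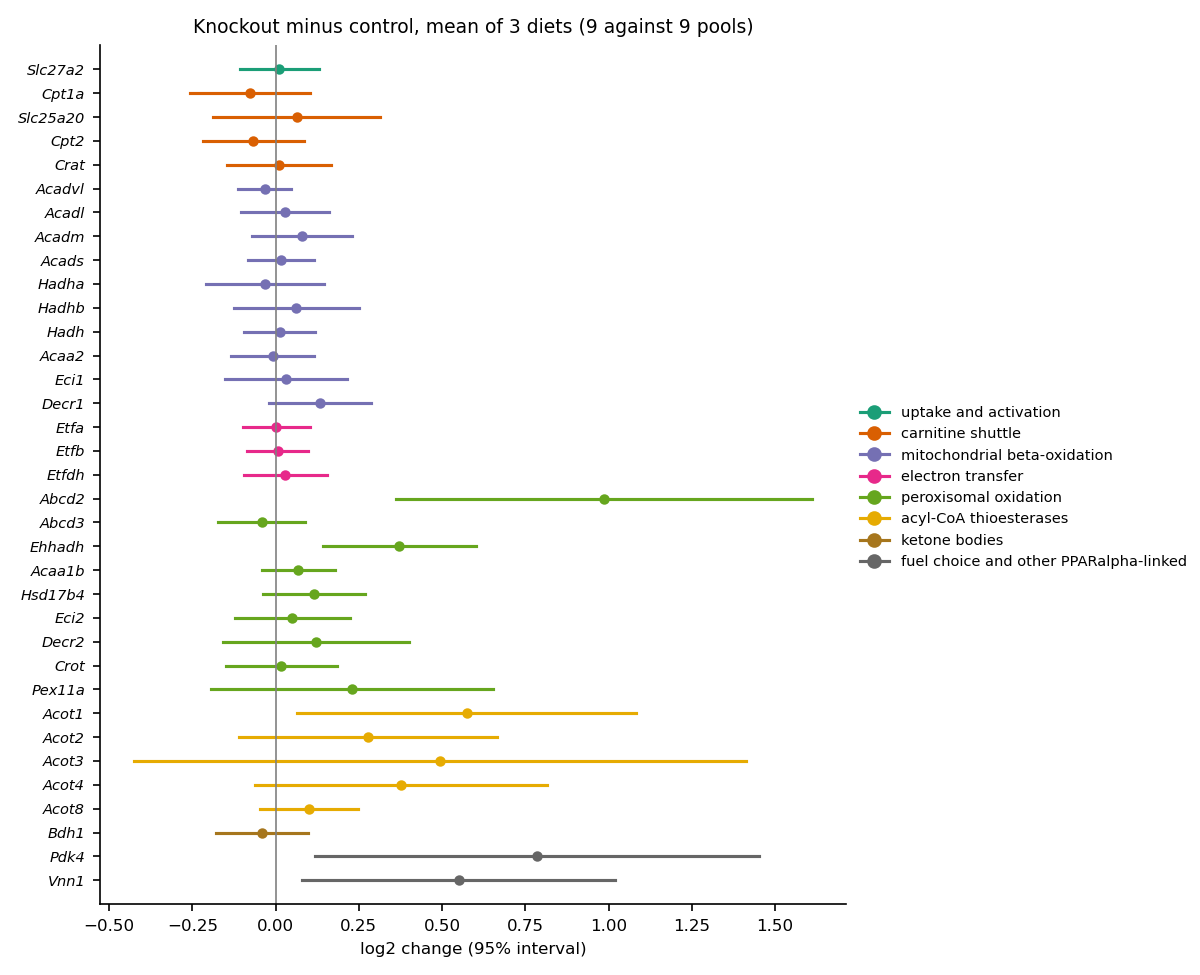
Log2 change, knockout minus control, averaged over the 3 diets (9 against 9 pools) for each of the 35 genes, with its 95% limma interval, coloured by step. All 17 genes of the carnitine shuttle, mitochondrial beta-oxidation and electron transfer have intervals between 0.836 and 1.24 of the control level, and the widest intervals belong to inducible genes such as Acot3, Pdk4 and Abcd2.

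Acyl-CoA thioesterases release free fatty acids from acyl-CoA, and Acot1 to Acot4 are close copies that lie together on chromosome 12, so their probe sets may share signal. All 5 thioesterases had an averaged knockout change above 0, with a median of 0.38 and 0 called. On canola only 2 of 5 were above 0, with a median of -0.08. All 5 were above 0 on lard and on fish/fungal oil, with medians of 0.83 and 0.45. For Acot1, the cytosolic member, the averaged value was 0.57 (SE 0.24, limma adjusted p = 0.211). For the mitochondrial Acot2 it was 0.28 (SE 0.18), for the peroxisomal Acot3 0.49 (SE 0.44), Acot4 0.38 (SE 0.21) and Acot8 0.10. Acot3 read 8.00, 6.06 and 6.44 in control lard, 7.27, 7.17 and 10.68 in knockout lard, 9.48, 9.23 and 7.99 in control canola and 8.67, 9.16 and 7.13 in knockout canola pools. On fish/fungal oil it read 7.87, 7.49 and 8.69 in control and 8.92, 8.17 and 8.53 in knockout pools. The single value of 10.68 in knockout lard pool 3 was the highest of all 18. Without that pool the averaged change of Acot3 went from 0.49 to 0.11 and its change on lard from 1.54 to 0.39, and those of Acot4 went from 0.38 to 0.18 and from 0.85 to 0.25. The changes on lard went from 0.83 to 0.34 for Acot1 and from 0.68 to 0.45 for Acot2. Without both lard pools that stood apart the averaged changes were 0.51 for Acot1, 0.30 for Acot2, 0.30 for Acot3 and 0.28 for Acot4, with a median of 0.30 over the 5 thioesterases and 0.11 over the 12 peroxisomal genes.

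Pdk4, a kinase that switches off pyruvate dehydrogenase and so spares glucose, showed the same dependence on that pool. It read 5.06, 4.91 and 5.17 in control lard and 6.08, 5.08 and 8.34 in knockout lard, 5.21, 6.27 and 5.15 in control canola and 6.32, 5.88 and 5.06 in knockout canola, 4.67, 4.16 and 4.90 in control fish/fungal and 5.49, 5.34 and 4.96 in knockout fish/fungal pools. Only 7 of 18 arrays were above their median, so these levels lie near background. The averaged change was 0.79 (SE 0.32, limma adjusted p = 0.188), and 0.48 (0.215) without knockout lard pool 3. Vnn1, a pantetheinase of the cell surface and a known PPAR-alpha target, gave 0.55 (SE 0.22, limma adjusted p = 0.191), and its second probe set 0.62. Without knockout lard pool 3 the Vnn1 change on lard went from 0.89 to 0.50.

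These inducible genes also varied most between pools of 1 group. The residual SD of Acot3 was 1.10, above all but a few of the genes tested (percentile 100 when rounded), that of Pdk4 0.80 (percentile 99.9), Abcd2 0.75 (99.8), Acot1 0.61 (99.6) and Vnn1 0.56 (99.4). The median over all genes was 0.15, and 9 of the 35 lay above the value of 0.298 that 95% of all genes stay under. The core mitochondrial genes covered most of the range, from 0.064 for Acadvl (percentile 1.34), 0.072 for Acads (2.71) and 0.084 for Etfb (6.3) to 0.203 for Cpt1a (80.3), 0.212 for Hadhb (82.7) and 0.29 for Slc25a20 (94.5).

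**Figure D4:**
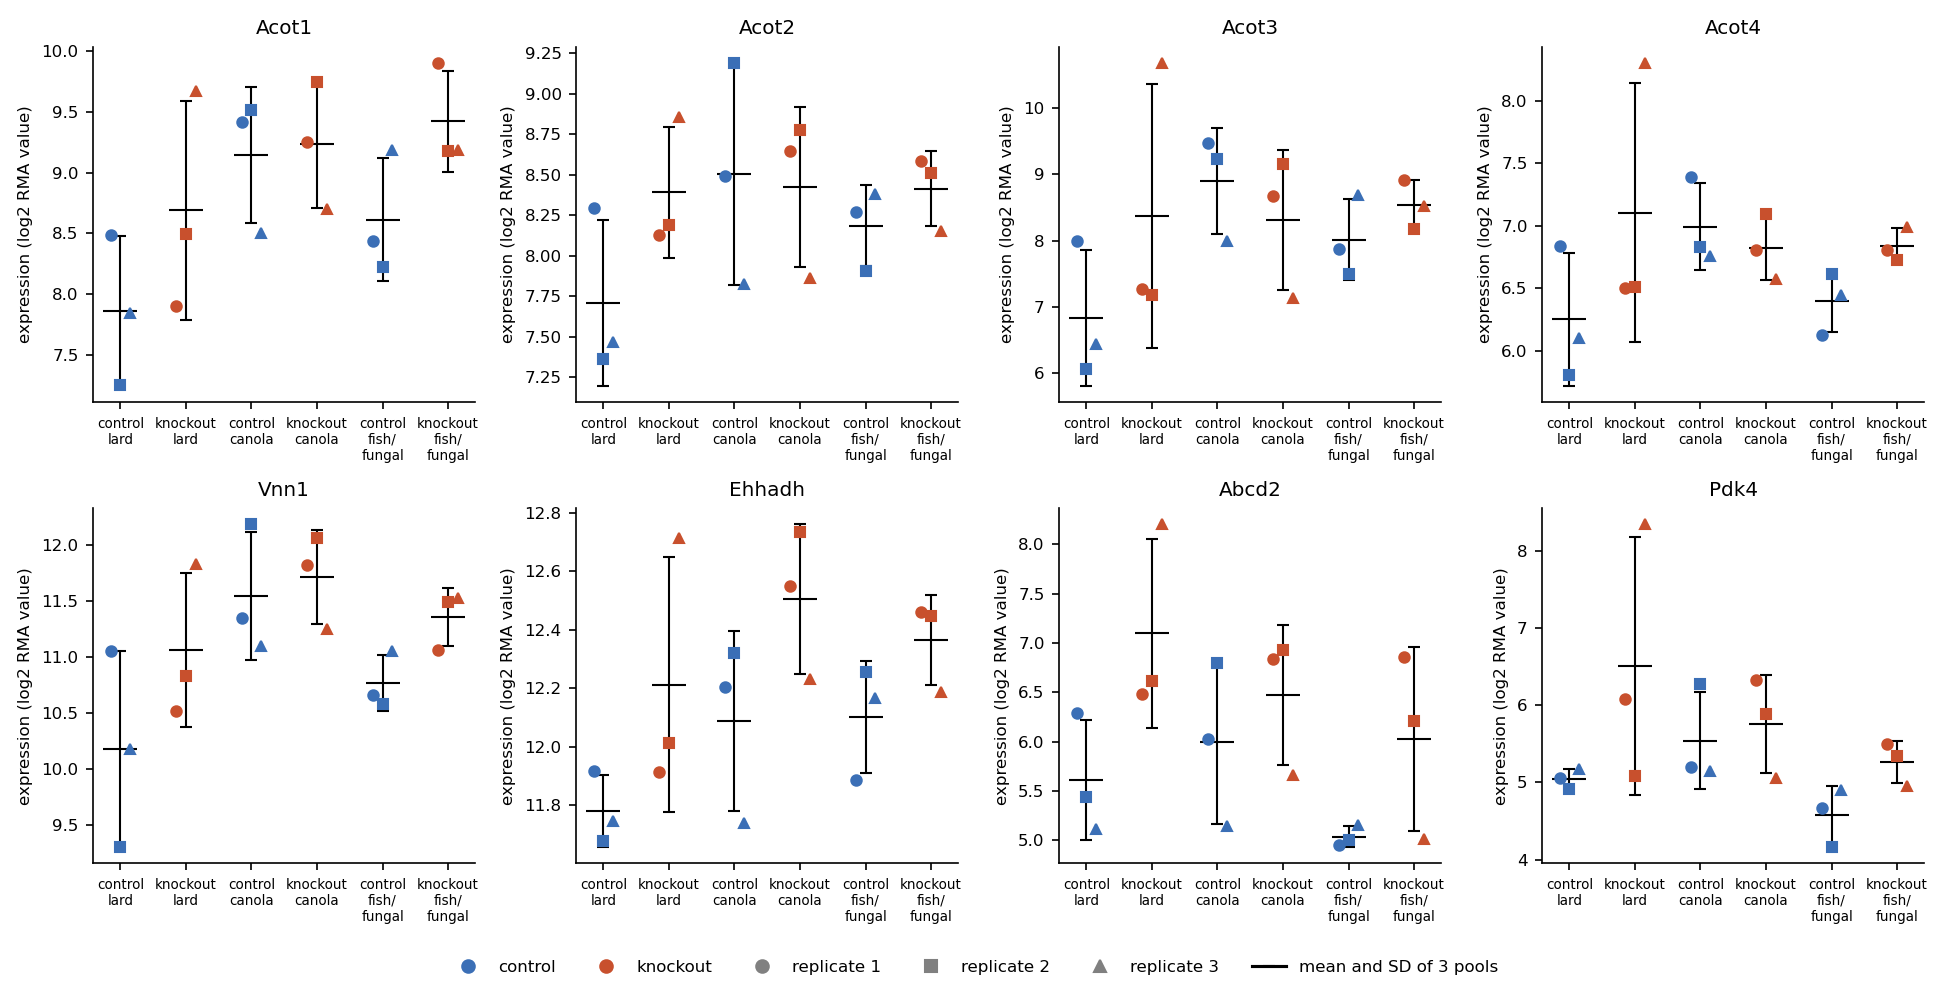
Level (log2 RMA value) in each of the 18 pools by genotype and diet for 8 inducible genes, with the mean and SD of 3 pools. Acot3 runs from 6.06 in control lard replicate 2 to 10.68 in knockout lard replicate 3, whose values for Abcd2 (8.20) and Pdk4 (8.34) are also the highest of all pools.

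Across diets, canola groups tended to hold the highest levels, although no single gene passed the test for canola against lard. Averaged over genotypes, 33 of 35 genes had a higher mean on canola than on lard, with a median change of 0.15, beside -0.0085 for all genes, and 33 of 35 did so under each other scaling. None of the 35 and none of the 12578 genes (0%) was called by limma, and at an unadjusted p under 0.05 there were 12 of 35, against 6.77% of all genes (852). Fish/fungal oil against canola gave 32 of 35 below 0 with a median of -0.13 (31 or 32 under other scalings). Fish/fungal oil against lard gave 22 above 0 with a median of 0.05, and 28 with a median of 0.16 without the lard pools that stood apart. At an unadjusted p under 0.05 there were 3 of 35 (9.68% of all genes) and 8 of 35 (13.1%) in these comparisons. The comparisons share arrays of 1 diet each, so their directions are not independent of each other, and the genes share their pools.

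Mitochondrial and peroxisomal genes lay alike in this order. The median change of canola against lard was 0.15 over 19 mitochondrial genes (18 above 0) and 0.16 over 12 peroxisomal genes (11 above 0). Against canola, fish/fungal oil gave -0.13 (2 of 19 above 0) and -0.12 (1 of 12). All 10 genes of mitochondrial beta-oxidation had a mean above lard on canola and below canola on fish/fungal oil. By group means, knockout canola was the highest of the 6 groups for 18 of 35 genes and control canola for 7, where they were the highest for 11.2% and 13.4% of all genes. Control lard was the lowest for 16 of 35 (15.1% of all genes) and control fish/fungal for 9 (15.9%), and no gene of the 35 was lowest in a canola group.

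Eci1 and Eci2, the mitochondrial and peroxisomal isomerases for unsaturated chains, and Acadm, the medium-chain dehydrogenase, show how the lard pools divided. Their residual SDs were 0.202, 0.191 and 0.167, above the median of all genes. Eci1 read 11.42, 10.78 and 10.89 in control lard and 10.75, 10.90 and 11.34 in knockout lard, 11.42, 11.36 and 11.23 in control canola and 11.35, 11.50 and 11.48 in knockout canola, and 11.17, 11.31 and 11.09 and then 11.11, 11.25 and 11.26 on fish/fungal oil. Except for control lard pool 1 and knockout lard pool 3, every lard pool lay below every canola and fish/fungal pool. Those pools were singled out for being high in these genes, so this separation is a description and no test. The share of all genes that separate so was not counted, and with all pools kept the diets overlapped. The Eci1 change of canola against lard was 0.38 (SE 0.11, limma adjusted p = 0.344). Eci2 read 11.38, 10.84 and 10.99 in control lard and 10.91, 11.10 and 11.45 in knockout lard, 11.29 to 11.56 and 11.27 to 11.62 on canola, and 11.26 to 11.50 and 11.46 to 11.50 on fish/fungal oil. Its changes were 0.33 (SE 0.10, limma adjusted p = 0.394) for canola and 0.33 (SE 0.10, 0.118) for fish/fungal oil against lard. Acadm gave 0.32 (SE 0.09, limma adjusted p = 0.344) and 0.22 (SE 0.09, 0.273).

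The largest canola values belonged to inducible genes. Vnn1 read 9.30 to 11.83 on lard (median 10.67), 11.10 to 12.19 on canola (median 11.59) and 10.58 to 11.53 on fish/fungal oil (median 11.06), and the diets overlapped. Its change of canola against lard was 1.01 (SE 0.27, limma adjusted p = 0.344), and 1.14 (SE 0.30) in its second probe set. Acot3 gave 1.00 (SE 0.53), Acot1 0.91 (SE 0.30), and Pex11a 0.54 (SE 0.25). Acot2 gave 0.41 in the probe set used and -0.03 in its second one. Pdk4 and Abcd2 differed from this pattern, with -0.13 and -0.12 for canola against lard and -0.85 and -0.82 for fish/fungal oil against lard, none of which passed the test. Without control lard pool 1 and knockout lard pool 3 these values became 0.34 and 0.32, and -0.39 and -0.38. The pools were chosen for being high in these genes, so this shift is no test. For Pdk4, control lard pool 1 (5.06) lay between the other control lard pools (4.91 and 5.17), and knockout lard pool 3 read 8.34. For canola against lard, Cpt1a gave 0.05, and Etfa, Acads, Abcd3, Crot and Crat between 0.02 and 0.06. The second Crat probe set of similar brightness gave 0.32 (SE 0.20), and -0.53 (SE 0.20) for fish/fungal oil against canola.

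**Figure D5:**
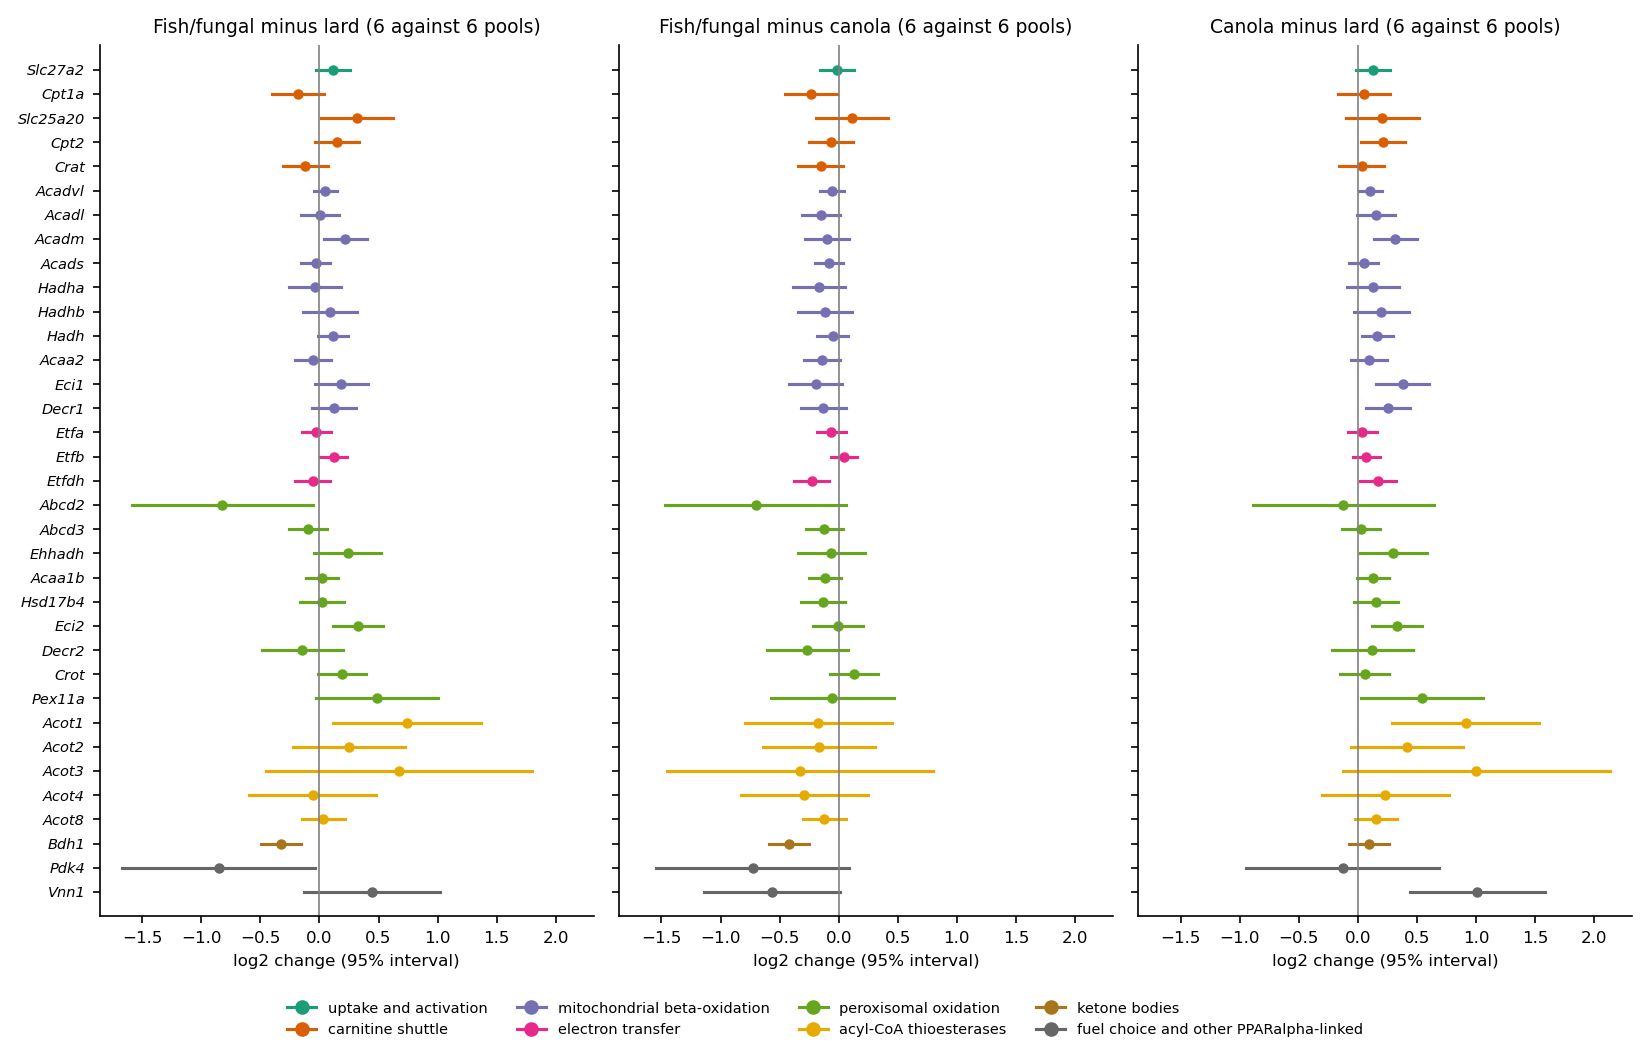
Log2 change between diets, averaged over genotypes (6 against 6 pools), for each of the 35 genes, with its 95% limma interval, coloured by step. Points for fish/fungal oil against canola lie below 0 for 32 genes and points for canola against lard above 0 for 33, and only the Bdh1 changes for fish/fungal oil pass the adjusted threshold.

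Without control lard pool 1 and knockout lard pool 3, the pools that were high for these genes, the lard groups read lower and more genes were called. The pools were chosen for being high in these genes, so lower lard values follow from the choice. The counts, directions and p-values against lard given here are therefore no test. The shares of all genes beside them are not a like background, as the pools were not chosen on all genes. For canola against lard 8 of 35 were higher (0.223% of all genes were higher and 0.334% called), and the change was above 0 for all 35, with a median of 0.28. Those called were Eci1 (0.56, limma adjusted p = 0.00267), Decr1 (0.40), Acadm (0.45), Eci2 (0.48), Vnn1 (1.43), Acot1 (1.31), Acot3 (1.87) and Acot4 (0.68, 0.048). For fish/fungal oil against lard 6 were higher (0.668% of all genes were higher and 2.11% called), namely Eci2 (0.48, limma adjusted p = 0.0056), Eci1 (0.37), Acadm (0.35), Decr1 (0.27), Acot1 (1.14) and Acot3 (1.54, 0.0352). For fish/fungal oil against canola, which uses no lard pool, Bdh1 remained the 1 gene called (1.2% of all genes), and for knockout against control 0 of 35 were called (3.68%). Whether the higher pools or the lower ones stand for the lard diet was not tested.

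No gene of the 35 differed between genotypes in its response to diet at an adjusted p under 0.05, nor did any of the 12578 genes (0%). At an unadjusted p under 0.05 the interaction called 0 of 35, against 2.42% of all genes for fish/fungal oil against lard and 1.92% over all 3 diets. The adjusted p of the limma interaction was 1 for each member. For Bdh1 the difference between genotypes in the change was -0.04 against lard and 0.04 against canola. Within control livers 0 of 35 were called for fish/fungal oil against lard (0.716%) and against canola (0.262%), and within knockout livers also 0 (0.461% and 0.159%).

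Neighbouring genes of the same pathways, taken from 7 lists, showed where the test did call changes. On the carnitine and malonyl-CoA list, 2 of 7 tested were lower on fish/fungal oil than on lard and 1 of 7 lower than on canola, where 1.78% and 0.692% of all genes were lower. The lower calls on the lists that follow are read against the same shares. Acacb, the acetyl-CoA carboxylase whose product malonyl-CoA inhibits carnitine palmitoyltransferase, read 7.688 to 9.626 on lard (median 8.675), 7.401 to 8.794 on canola (median 8.121) and 5.791 to 7.136 on fish/fungal oil (median 6.205). The fish/fungal pools lay below all others, and lard and canola pools overlapped. It fell by 2.41 on the log2 scale against lard (limma adjusted p = 0.00012) and changed by -1.79 against canola (0.00441). Both calls held under all 28 alternatives, but the size varied. The Acacb change ran from -2.65 to -1.18 against lard and from -1.97 to -0.873 against canola. It was lower within each genotype against lard (-2.58 in control, limma adjusted p = 0.00378, and -2.25 in knockout, 0.0219). Acaca, the cytosolic carboxylase of fatty acid synthesis, fell by 1.24 against lard (limma adjusted p = 0.00785).

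Of 10 tested acyl-CoA synthetases and transport proteins, Acsl3 and Acsl5 were lower on fish/fungal oil than on lard, and Acsl3 was lower than on canola. Acsl3, which activates long-chain fatty acids, read 7.295 to 7.968 on lard, 7.072 to 7.452 on canola and 5.905 to 6.839 on fish/fungal oil. It fell by 1.35 against lard (SE 0.13, limma adjusted p = 8.71e-06) and by 0.87 against canola (0.00174). Both calls held under all 27 alternatives, with changes from -1.45 to -0.914 against lard and from -0.952 to -0.545 against canola. Acsl5 fell by 0.62 (limma adjusted p = 0.0221), a call lost under 9 of 28 alternatives. Of 17 tested PPAR-alpha regulators and targets, Cyp4a14, a fatty acid omega-hydroxylase, rose by 2.19 against lard (SE 0.56, limma adjusted p = 0.0476), from a lard range of 7.422 to 11.77 to a fish/fungal range of 9.942 to 12.47. That call was lost under 18 of 28 alternatives. Plin2, a lipid droplet coat protein, fell by 0.51 against lard (limma adjusted p = 0.0329, lost under 9 of 28) and by 0.62 against canola (0.0189, lost under 5 of 28). None of 6 ketone body genes, 12 mitochondrial acyl-CoA genes, 14 peroxisomal oxidation genes or 12 peroxisome assembly genes was called in either comparison.

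Between genotypes, averaged over diets, the same lists gave a few small calls, where 4.57% of all genes were called. Slc16a7, a carrier of ketone bodies and other monocarboxylates and 1 of 6 on its list, was higher in knockout livers by 0.70 (SE 0.13, limma adjusted p = 0.00559), with control pools from 8.634 to 9.63 and knockout pools from 9.398 to 10.03. On the list of 12 mitochondrial genes Acot9, a thioesterase, was higher by 0.43 (SE 0.09, limma adjusted p = 0.0127), and Acad12 by 0.20 (0.0345, lost under 12 of 26 alternatives). On the list of 14 peroxisomal genes Acot6 was higher by 0.39 (limma adjusted p = 0.00123), with both groups near background (medians of 4.882 in control and 5.244 in knockout pools), and Nudt7, a CoA diphosphatase, was lower by 0.22 (0.0173). Angptl4, a secreted inhibitor of lipoprotein lipase, was higher by 0.52 (SE 0.12, limma adjusted p = 0.0208), a call lost with the mean of its probe sets (0.22, 0.117) and without knockout canola pool 2 (0.49, 0.052). On the other 3 lists, carnitine and malonyl-CoA control (7 tested), synthetases and transport (10) and peroxisome assembly (12), the count was 0 in both directions, and for canola against lard it was 0 on all 7. Macrophage markers were higher in the same genotype, and their part in these values was not tested.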

How the data were processed

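Expression was read on Affymetrix Mouse Genome 430 2.0 arrays. The deposited values are RMA values per the submitters' processing notes, with the version not given in the sources used here, and their range from 2.409 to 14.89 was read as log2 intensity. The authors pooled RNA of 3 mice for each array, per the labels' protocols. Of 45101 probe sets, 64 were controls, 34945 had 1 gene symbol, 932 several and 9160 none, and 34741 matched RefSeq by gene ID. The brightest probe set stood for a gene. A gene was tested if above the array's own median in at least 3 of 18 arrays (12578 tested, 5615 too dim).

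Group means of the 6 groups were fitted with limma 3.58.1 in R 4.3.3, with an intensity trend, and p-values were adjusted over all genes tested by Benjamini and Hochberg (threshold 0.05). The script was tested on simulated data. Genes named are all members, and those called on 7 other lists. Members and lists were chosen with earlier results of these data known. Alternatives were quantile normalization, centring, other filters, probe set means, array weights, a replicate block and leaving out pools. No depth applies, and the number of arrays limits the precision. Promoter coordinates are RefSeq's (GRCm38.p6), and the array files name no build. Figures used Python 3.11.15 and matplotlib 3.10.9.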

Additional observations from a re-analysis of the deposited data

How the results depend on the processing

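No called result changed direction under the alternatives tried. For knockout against control averaged over diets, the count of the 35 genes called moved from 0 to 2 with array weights (Abcd2 1.11, limma adjusted p = 0.0194, and Ehhadh 0.41, 0.0227), and ranged from 0 to 2 when each replicate was left out. The call was gained for Ehhadh without knockout lard replicate 1 (0.42, 0.0409), for Pdk4 without knockout lard replicate 2 (1.02, 0.039), and for Abcd2 and Ehhadh without control canola replicate 2, knockout canola replicate 3 or knockout fish/fungal replicate 3. For fish/fungal oil against lard, the count moved from 1 to 0 under repeated quantile normalization, centring, no filter, a fit without the intensity trend, a fit of the compared groups alone, array weights and a replicate block. It ranged from 0 to 2 when each replicate was left out, with Eci2 (0.40, limma adjusted p = 0.036) and Acadm (0.30, 0.0492) called and Bdh1 not called without knockout lard replicate 3. Control lard replicate 1 and knockout lard replicate 3 were chosen after seeing the data, because they were high for these genes. Without both, the count was 6 for fish/fungal oil against lard and 8 for canola against lard, which is no test. For fish/fungal oil against canola Bdh1 was called under all 28 (limma adjusted p from 0.00733 to 0.0454). The cause of these changes was not tested.

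Over all genes the count of calls ranged from 371 to 846 for the knockout averaged over diets, 199 to 369 and 76 to 160 for fish/fungal oil against lard and canola, and 0 to 4 for canola against lard. It ranged from 30 to 182, 1 to 90 and 13 to 43 for the knockout on lard, canola and fish/fungal oil. Within control and knockout livers it ranged from 41 to 122 and 12 to 116 against lard, and from 19 to 50 and 5 to 30 against canola. Replicate numbers did not pair the samples: the correlation of deviations had a median of -0.0076 over 45 pairs with the same number, 17 of them over 0.1, and -0.041 over 90 pairs with different numbers. With the replicate block, 255 genes in all were called for fish/fungal oil against lard. Dim signal limits the lowest levels of Abcd2 and Pdk4.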
